A study of Homo sapiens with 6 samples.

Results

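Transforming growth factor beta (TGF-β) and the bone morphogenetic proteins (BMPs) are secreted ligands that bring type I and type II receptor kinases together on the cell surface. TGFB1 and TGFB2 encode ligands, TGFBR2 encodes the type II receptor that binds them, and TGFBR1 encodes the type I receptor that TGFBR2 activates. The activated type I receptor phosphorylates SMAD2 and SMAD3, which enter the nucleus with SMAD4, while BMP receptors act through SMAD1, SMAD5 and SMAD9. SMAD7 is an inhibitory SMAD that acts at the receptor, and SKIL (SnoN) is a nuclear co-repressor of SMADs, and both are induced by the pathway that they restrain. ID1, ID2 and ID3 are well-known BMP target genes whose products bind E proteins, a class of basic helix-loop-helix transcription factors, and keep them from DNA. In the liver, TGF-β restrains hepatocyte growth and drives fibrosis, and BMP6 signaling controls the iron hormone hepcidin.

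The 10 genes TGFB1, TGFB2, TGFBR1, TGFBR2, SMAD3, SMAD7, SKIL, ID1, ID2 and ID3 were taken by name from the 29153 genes in the deposited table, where each of them had 1 entry. They were measured by RNA sequencing in HepG2, an established liver cancer cell line, in 3 control libraries (shNC lentivirus) and 3 knockdown libraries (shLINC01977 lentivirus, whose library titles call the hairpin sh3), all at 72 h after infection. Infected cells had been selected with puromycin, and no source states whether the 3 libraries of a group came from separate cultures, so that p-values measure the spread between these libraries, which may be technical. Of the 10 genes, 9 passed the filter on low values (a mean FPKM of at least 0.5) and were tested with edgeR among 13452 genes, and TGFB2 did not pass it.

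Total counts were between 49929024 and 60441515 per library. LINC01977 (ENSG00000262772, chromosome 17, 79823452 to 79827704), the targeted gene, had 4, 0 and 16 counts in the shNC libraries and 0, 0 and 4 counts in the shLINC01977 libraries, so that its reduction was not detectable at this depth. The study reports a check of the knockdown in HepG2 cells by qRT-PCR, which is not part of these data. Of 12 markers of hepatocytes and HepG2 cells, all 12 were tested and 8 were lower in shLINC01977 libraries at an adjusted p under 0.05 (edgeR). Among all tested genes, 8.07% were lower at that threshold. The 12 markers summed to 5071 to 5451 FPKM in shNC and 3767 to 3828 FPKM in shLINC01977 libraries. Of the markers of other cells, the 4 endothelial genes in the table summed to at most 0.441 FPKM, and the leukocyte gene PTPRC was at 0 in 5 of the 6 libraries, while the sum of the 4 blood cell genes, 626 to 633 FPKM in shNC and 543 to 558 FPKM in shLINC01977 libraries, was nearly all LYZ. The 6 mesenchymal genes in the table summed to 16.9 to 17.9 FPKM in shNC and 16.8 to 20.2 FPKM in shLINC01977 libraries, with ACTA2 at 15.3 to 18.2 FPKM and PDGFRB higher in shLINC01977 libraries (0.411 to 0.706 against 1.49 to 1.89 FPKM), while VIM, under the filter, lay at 0.126 to 0.255 FPKM in shNC and 0.012 to 0.102 FPKM in shLINC01977 libraries. The part of these marker differences in the results that follow was not tested, and fewer cells of a kind cannot be told apart from less RNA per cell.

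TGFBR2 was lower and TGFB1 was higher in shLINC01977 cells, and these were the only members of the 9 that passed an adjusted p of 0.05 in edgeR. TGFBR2 fell 1.53-fold and TGFB1 rose 1.30-fold, so that neither reached the 2-fold threshold of the study. The count of 2 in 9 stands against 15.1% of all tested genes that passed the same threshold, with 7.05% higher and 8.07% lower, and a count of 2 does not set the members apart from that background. The median log2 fold change of the 9 members was 0.072, and that of all tested genes was -0.0010. For 5 of the 9 members the 3 shLINC01977 libraries did not overlap the 3 shNC libraries, as for 37.1% of all tested genes.

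**Figure D1:**
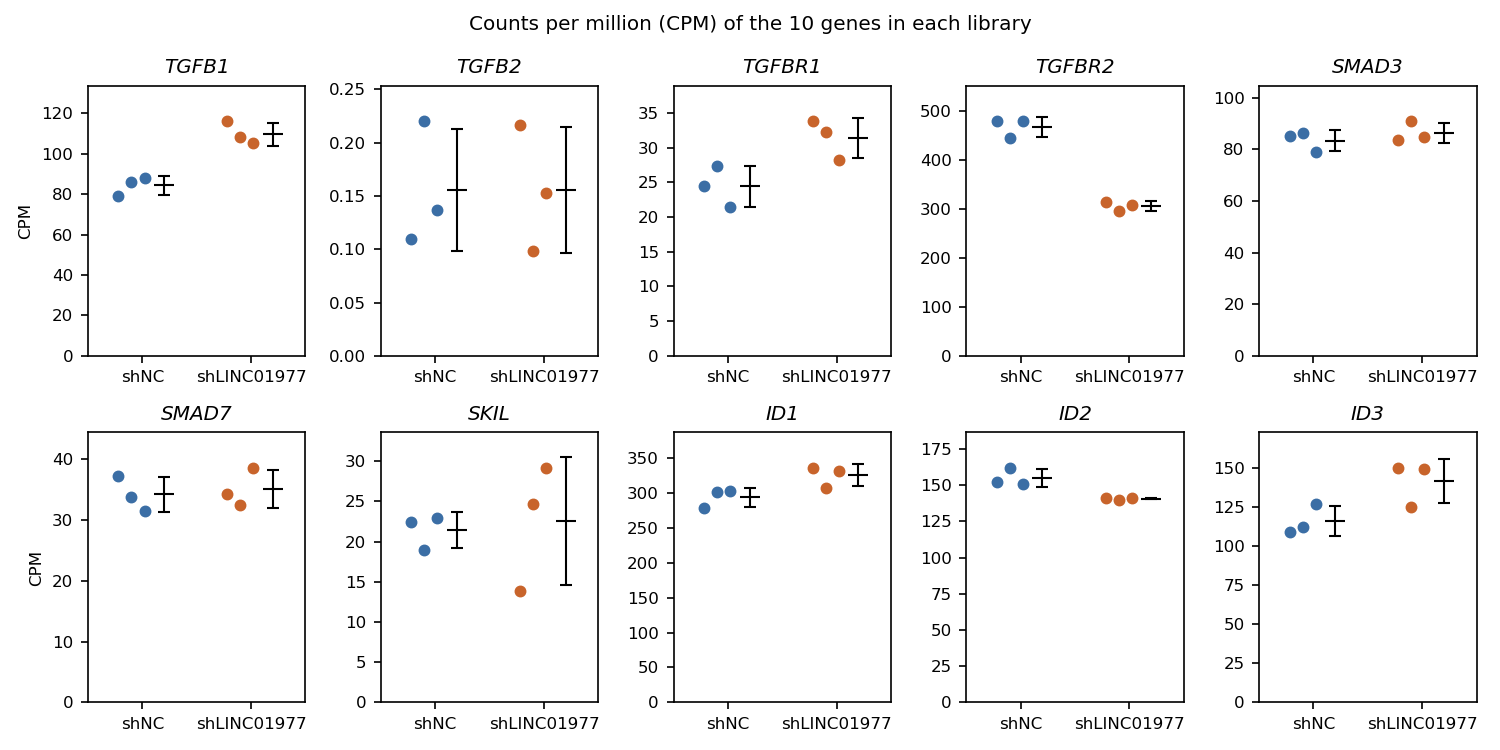
Level of each of the 10 genes in CPM (counts scaled to library size) in the 3 shNC (blue) and 3 shLINC01977 libraries (orange), each axis starting at 0, with the group mean and SD in black. The TGFBR2 libraries lie at 444 to 479 CPM in shNC and 295 to 314 CPM in shLINC01977, and the TGFB1 libraries at 79.1 to 88.1 and 105 to 116 CPM.

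RefSeq promoter entries (GRCh38.p14) were found for all 10 members, with 24 transcription starts between them, and the 250 bases before each start were searched on both strands for CAGAC, the short element bound by SMAD3 and SMAD4, which reads GTCTG from the other strand, and for the palindrome GGCGCC, an element bound by SMADs of the BMP branch. CAGAC lay before at least 1 start of 6 of the 10 members and before 11 of the 24 starts, against 38% of 35116 human promoter entries. GGCGCC lay before at least 1 start of 3 members and before 3 of the 24 starts, against 16.4% of all entries. Both backgrounds are shares of entries, so that they are no measure for the counts of members, which can have several starts. The 24 starts are not independent, since windows of 1 gene can overlap. Those before 99105083 and 99105113 of TGFBR1 hold the same GTCTG. The stretches of 3 members are shown 5′ to 3′, each cut where an annotated exon begins, with either motif in capitals. TGFBR2, the member with the largest change, is shown for chr3:30606351-30606501 on the plus strand, SKIL, a direct SMAD target, for chr3:170357465-170357677 on the plus strand, and ID1, the most abundant member, for chr20:31605039-31605282 on the plus strand.
TGFBR2: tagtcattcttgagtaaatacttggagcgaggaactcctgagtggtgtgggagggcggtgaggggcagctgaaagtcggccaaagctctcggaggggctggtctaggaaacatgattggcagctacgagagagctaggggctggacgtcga
SKIL: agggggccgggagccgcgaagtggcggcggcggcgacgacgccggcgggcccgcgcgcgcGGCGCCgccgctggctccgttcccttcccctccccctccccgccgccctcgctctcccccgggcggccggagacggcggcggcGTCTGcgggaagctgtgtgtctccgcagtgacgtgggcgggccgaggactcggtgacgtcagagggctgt
ID1: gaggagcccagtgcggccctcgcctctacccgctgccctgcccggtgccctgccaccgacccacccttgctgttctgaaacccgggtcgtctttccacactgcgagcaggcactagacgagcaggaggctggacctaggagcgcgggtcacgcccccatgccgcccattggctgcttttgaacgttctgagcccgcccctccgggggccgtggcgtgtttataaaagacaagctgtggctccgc
The SKIL stretch holds GGCGCC and GTCTG once each, and those of TGFBR2 and ID1 hold neither. These letters describe the windows and were not set against binding.

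Of the ligands, TGFB1 (ENSG00000105329, chromosome 19, 41301587 to 41353911, minus strand) had 79.1, 85.8 and 88.1 CPM in the shNC libraries and 116, 108 and 105 CPM in the shLINC01977 libraries. All shLINC01977 libraries lay above all shNC libraries. On the log2 scale the difference in TGFB1 was 0.38 ± 0.066 (standard error), with a 95% confidence interval of 0.22 to 0.54 (adjusted p = 0.0121 from edgeR). The exact two-sided permutation test gave p = 0.1, the smallest that 3 libraries against 3 allow. TGFB1 overlaps 4 listed genes on the opposite strand, HNRNPUL1, CCDC97, TMEM91 and AC011462.1, and no source states whether the counting used strand. AC011462.1 had 1063 counts in the third shLINC01977 library and at most 4 in each of the others, and without that library the log2 fold change of TGFB1 was 0.41 (adjusted p = 0.0265 from edgeR, with 0.0253 to 0.0412 over the libraries left out in turn). TGFB2 (ENSG00000092969, chromosome 1, 218346235 to 218444619), the other ligand, was close to undetected with 6, 11 and 8 counts in shNC and 12, 6 and 8 counts in shLINC01977 libraries. The groups overlapped, and a change of TGFB2 could not be detected at this depth, since in a fit of all listed genes the 95% confidence interval of its log2 fold change ran from -1.72 to 1.72.

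Of the receptors, TGFBR2 (ENSG00000163513, chromosome 3, 30606502 to 30694142, plus strand) had 26103, 21929 and 28183 counts in shNC and 17263, 17956 and 15857 counts in shLINC01977 libraries. This corresponded to 468 ± 20 CPM (SD, n = 3) and 306 ± 9.54 CPM (SD, n = 3). Every shLINC01977 library was below every shNC library, at 295 to 314 against 444 to 479 CPM. On the log2 scale the difference in TGFBR2 was -0.61 ± 0.047 (standard error), with a 95% confidence interval of -0.73 to -0.50 (adjusted p = 0.00106 from edgeR, rank 71 of the 13452 tested genes by p). The exact two-sided permutation test again gave the smallest possible p, 0.1.

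TGFBR1 (ENSG00000106799, chromosome 9, 99104038 to 99154192, plus strand) encodes the type I partner. Its level was 24.5, 27.4 and 21.5 CPM in shNC and 33.8, 32.2 and 28.2 CPM in shLINC01977 libraries, which did not overlap. The log2 fold change of 0.36 (95% confidence interval 0.09 to 0.64) did not pass the threshold after adjustment, with an adjusted p of 0.0842 from edgeR. It did pass with library totals in place of TMM scaling (adjusted p = 0.0450 from edgeR) and in DESeq2 (adjusted p = 0.0306), and over all alternatives the adjusted p lay between 0.0306 and 0.195.

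Per length and library, TGFBR2 was far more abundant than TGFBR1, and the gap was narrower in shLINC01977 libraries. The ratio of TGFBR2 to TGFBR1 in FPKM was 28.6, 23.6 and 32.5 in shNC libraries and 13.5, 13.3 and 15.9 in shLINC01977 libraries. The ratio of TGFB1 to TGFBR2 in FPKM was 0.24, 0.28 and 0.267 in shNC and 0.538, 0.534 and 0.493 in shLINC01977 libraries. Neither ratio overlapped between groups, which follows from TGFBR2 lying lower and TGFB1 and TGFBR1 higher without overlap. Neither ratio depends on the scaling between libraries, and they add no test to those of the single genes. TGFBR2 made up 93.9% ± 0.33 of the summed FPKM of the 4 type II receptors TGFBR2, ACVR2A, ACVR2B and BMPR2 in shNC and 90.4% ± 0.146 in shLINC01977 libraries (SD, n = 3 each). The summed level of these receptors was 84 ± 3.12 FPKM in shNC and 59.7 ± 2.47 FPKM in shLINC01977 libraries (SD, n = 3 each). TGFBR1 made up 17.1% ± 0.819 and 22.3% ± 3.12 of the summed FPKM of the 7 type I receptors (SD, n = 3 each), and that sum overlapped between the groups, with 16.6 ± 1.33 and 17.1 ± 0.991 FPKM.

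**Figure D2:**
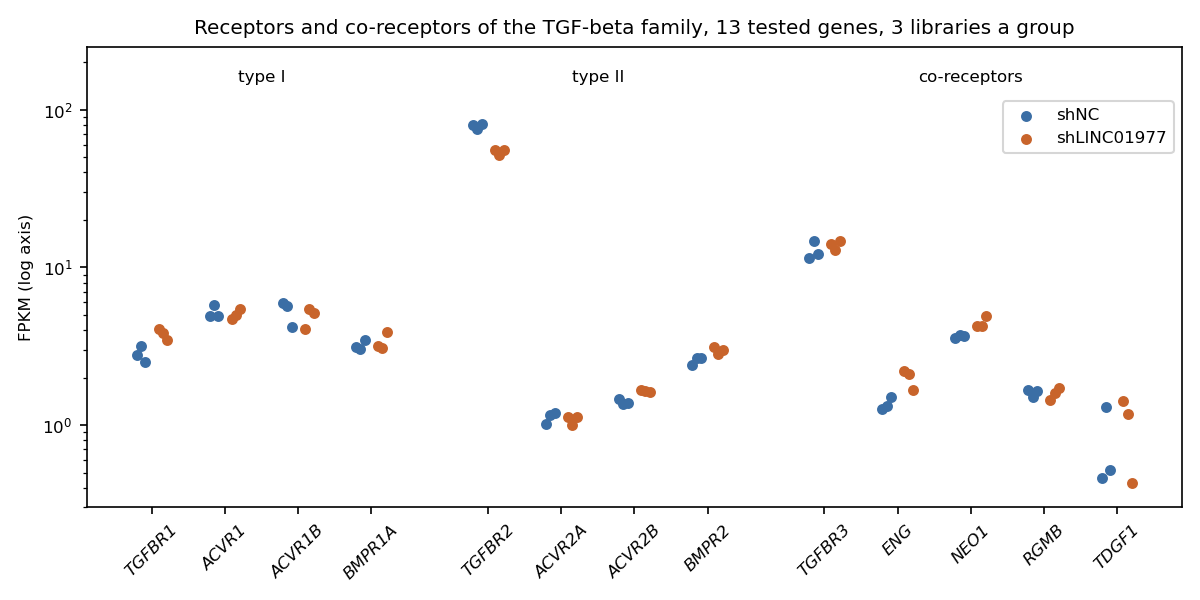
FPKM on a log axis of the 13 tested receptors and co-receptors in each shNC (blue) and shLINC01977 library (orange), by receptor type. TGFBR2 lies at 75.4 to 81.4 FPKM in shNC and 51.3 to 55.3 FPKM in shLINC01977 libraries, above all other receptors in both groups.

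The signal transducer and the feedback genes did not pass the test. SMAD3 (ENSG00000166949, chromosome 15, 67063763 to 67195195, plus strand) had 85.1, 86.2 and 78.9 CPM in shNC and 83.5, 90.9 and 84.9 CPM in shLINC01977 libraries, with overlapping groups and a log2 fold change of 0.05 (95% confidence interval -0.09 to 0.20, adjusted p = 0.615 from edgeR). The interval of SMAD3 excludes changes as large as that of TGFBR2. Part of SMAD3 overlaps AC087482.1 on the opposite strand, which had 447, 385 and 295 counts in shNC and 220, 208 and 175 counts in shLINC01977 libraries.

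SMAD7 (ENSG00000101665, chromosome 18, 48919853 to 48950711, minus strand) had 37.3, 33.8 and 31.5 CPM in shNC and 34.3, 32.5 and 38.6 CPM in shLINC01977 libraries. The groups overlapped, and the log2 fold change was 0.04 (95% confidence interval -0.19 to 0.26, adjusted p = 0.827 from edgeR). SKIL (ENSG00000136603, chromosome 3, 170357678 to 170396835, plus strand), whose promoter stretch with both motifs is printed above, was the tested member with the widest interval. Its level was 22.5, 18.9 and 23 CPM in shNC and 13.8, 24.7 and 29.2 CPM in shLINC01977 libraries, so that the lowest and the 2 highest values all lay in the shLINC01977 group. The log2 fold change of SKIL was 0.07 (95% confidence interval -0.55 to 0.70, adjusted p = 0.886 from edgeR), and it was 0.33 without the first shLINC01977 library and -0.16 without the third.

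Of the ID genes, ID1 and ID3 had positive log2 fold changes and ID2 a negative one, all small and none past the adjusted threshold in edgeR. ID1 (ENSG00000125968, chromosome 20, 31605283 to 31606515, plus strand) had 278, 301 and 302 CPM in shNC and 336, 307 and 332 CPM in shLINC01977 libraries, which did not overlap, and its log2 fold change was 0.15 (95% confidence interval 0.02 to 0.28, adjusted p = 0.127 from edgeR). ID3 (ENSG00000117318, chromosome 1, 23557918 to 23559794, minus strand) had 109, 112 and 127 CPM in shNC and 150, 125 and 149 CPM in shLINC01977 libraries. The second shLINC01977 library of ID3 lay just below the highest shNC library, and the log2 fold change was 0.28 (95% confidence interval 0.06 to 0.50, adjusted p = 0.0973 from edgeR). Without that library the adjusted p of ID3 was 0.0488 in edgeR with a log2 fold change of 0.36, and DESeq2 over all libraries gave an adjusted p of 0.0462, within a range of 0.0462 to 0.228 over all alternatives.

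ID2 (ENSG00000115738, chromosome 2, 8678845 to 8684453, plus strand) had 152, 162 and 151 CPM in shNC and 141, 140 and 141 CPM in shLINC01977 libraries, all of them lower than in shNC. Its log2 fold change was -0.14 (95% confidence interval -0.25 to -0.03, adjusted p = 0.0969 from edgeR). With library totals in place of TMM scaling the log2 fold change of ID2 was -0.072 (adjusted p = 0.362 from edgeR). ID2 overlaps ID2-AS1 on the opposite strand, which had at most 42 counts in any library. Within libraries, the ratio of ID1 to ID2 in FPKM was 3.28, 3.33 and 3.58 in shNC and 4.26, 3.92 and 4.22 in shLINC01977 libraries, and that of ID3 to ID2 was 0.885, 0.852 and 1.03 against 1.3, 1.09 and 1.3. Both ratios were higher in every shLINC01977 library than in every shNC library. They pair genes that moved in opposite directions and add no test to those of the single genes.

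**Figure D3:**
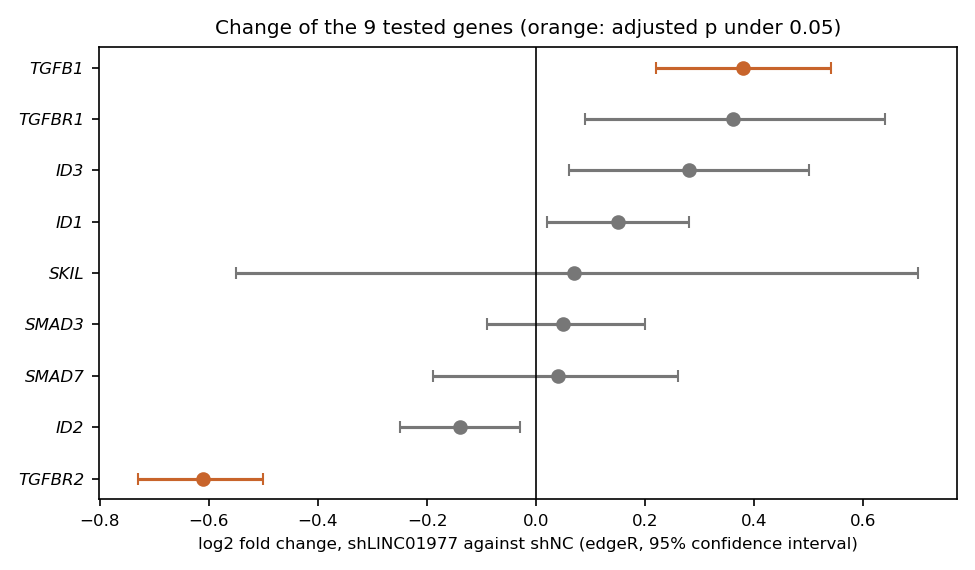
Log2 fold change of the 9 tested members between shLINC01977 and shNC libraries with its 95% confidence interval (edgeR), in orange where the adjusted p is under 0.05. TGFBR2 at -0.61 and TGFB1 at 0.38 are the orange points, and the widest interval, from -0.55 to 0.70, belongs to SKIL.

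In levels per length, ID1 was the most abundant member, with 189 ± 10.6 FPKM in shNC and 219 ± 13.1 FPKM in shLINC01977 libraries (SD, n = 3 each). In shNC libraries it was followed by TGFBR2 at 78.9 ± 3.14, ID2 at 55.8 ± 2.51, ID3 at 51.4 ± 4.6 and TGFB1 at 20.7 ± 1.36 FPKM (SD, n = 3 each), where ID2 and ID3 did not differ beyond their spread. In shLINC01977 libraries ID3 at 65.2 ± 7.35 FPKM came second, and TGFBR2 at 53.9 ± 2.26 and ID2 at 53 ± 0.897 FPKM overlapped (SD, n = 3 each). Then came TGFB1 at 28.1 ± 1.42, SMAD7 at 7.89 ± 0.81, SMAD3 at 7.86 ± 0.28, TGFBR1 at 3.8 ± 0.317 and SKIL at 2.4 ± 0.861 FPKM (SD, n = 3 each). SMAD7 and SMAD3 overlapped in both groups, with 7.34 ± 0.547 and 7.26 ± 0.313 FPKM in shNC libraries (SD, n = 3 each), and TGFB2 at 0.0141 to 0.0331 FPKM was lowest throughout. Among the 13452 tested genes, ID1 ranked 138 by mean FPKM and TGFBR2 ranked 460.

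Other genes of the pathway were taken from lists written by role, which held 104 genes in the table beside the members. Of these, 70 were tested, and 13 were higher and 8 lower in shLINC01977 libraries at an adjusted p under 0.05 (edgeR), which is 30.0% of the tested genes against 15.1% of all tested genes. Their median log2 fold change was 0.10. The role lists were written with earlier results of these data known, so that the share of 30.0% is not independent of these data. With the members included, the split was 14 higher and 9 lower, and it was 18 higher and 6 lower with library totals in place of TMM scaling. Of these 23 calls, 14 held whichever library was left out. Those of GDF7 and TGIF1 held in 0 of the 6 fits that left out 1 library. Those of IL11, LTBP1, LTBP2 and TCF3 held in 1 of the 6, and those of NEDD4L, SKI and TAGLN in 2. The adjusted p of these genes reached up to 0.127 in edgeR, with the direction kept. The calls of GDF7, NEDD4L and SKI were also lost with library totals. The KEGG terms in the deposited table placed 78 genes in the TGF-beta signaling pathway, of which 59 were tested. Of these, 7 were higher and 8 lower, which is 25.4%, with a median log2 fold change of 0.031.

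Among genes that store or activate the ligand, 4 of the 7 tested were higher and 1 was lower. Among all tested genes, 7.05% were higher and 8.07% lower. This list, too, was written with earlier results of these data known, so that its share is not independent of them. The calls of LTBP1 and LTBP2 each held in 1 of the 6 fits that left out 1 library. Latent TGF-β binding proteins hold the ligand in the matrix. LTBP3 rose by a log2 fold change of 0.54 (adjusted p = 0.00316), LTBP1 by 0.69 (adjusted p = 0.0363) and LTBP2, chosen after its values were seen, by 0.56 (adjusted p = 0.0480), all from edgeR, although LTBP1 at 0.39 to 0.782 FPKM and LTBP2 at 0.458 to 0.853 FPKM were low in all libraries. LTBP4, chosen after its values were seen, lay under the filter at 0.136 to 0.191 FPKM in shNC and 0.609 to 0.775 FPKM in shLINC01977 libraries. FURIN, a protease that cleaves the TGF-β precursor, rose from 33.6 to 34.1 FPKM in shNC to 45.9 to 52 FPKM in shLINC01977 libraries, a log2 fold change of 0.45 (adjusted p = 0.00359 from edgeR). THBS1, thrombospondin 1, which can activate latent TGF-β, fell by 0.25 on the log2 scale (adjusted p = 0.00984 from edgeR).

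Of the 7 tested ligands of the TGF-β and activin branch, INHBB, which encodes an activin subunit, rose by 0.58 on the log2 scale (adjusted p = 0.00597) and INHBE, an activin subunit made in liver, fell by 0.63 (adjusted p = 0.00912), both from edgeR. INHBB went from 5.43 to 5.53 FPKM in shNC to 7.87 to 9.03 FPKM in shLINC01977 libraries, and INHBE from 11.5 to 13.9 FPKM to 7.82 to 8.99 FPKM, without overlap. Among the 9 BMP ligands in the table, 2 were tested, of which GDF7 fell by 0.45 (adjusted p = 0.0357 from edgeR). BMP4, chosen after its values were seen, at 35.8, 19.4 and 32.6 FPKM in shNC and 52.7, 34.1 and 36.7 FPKM in shLINC01977 libraries, overlapped between groups.

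Of the 5 tested extracellular inhibitors and pseudoreceptors, 2 were higher, against 7.05% of all tested genes. BAMBI, a receptor without a kinase that dampens signaling, had 10.1, 10.6 and 9.95 FPKM in shNC and 16, 16.3 and 17.2 FPKM in shLINC01977 libraries, a log2 fold change of 0.63 (adjusted p = 0.00160 from edgeR). TWSG1, a secreted BMP-binding protein, rose by 0.47 on the log2 scale (adjusted p = 0.0124 from edgeR). TGFBR2 was the only call among the 13 tested receptors and co-receptors, and 0 of the 8 SMADs were called in edgeR. Among all tested genes, 15.1% were called. SMAD2 and SMAD6 were the 2 SMADs with an unadjusted p under 0.05 in edgeR, and DESeq2 called 1 SMAD, the inhibitory SMAD6, as did edgeR with library totals.

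Of the 14 tested co-repressors and turnover factors, TGIF1, a SMAD co-repressor, rose by 0.31 on the log2 scale (adjusted p = 0.0353), and SKI, the relative of SKIL, fell by 0.26 (adjusted p = 0.0276), both from edgeR. NEDD4L, a ubiquitin ligase for activated SMADs, fell by 0.32 (adjusted p = 0.0278 from edgeR). These 3 calls were 21.4% of the list, against 15.1% of all tested genes. That of TGIF1 held in 0 of the 6 fits that left out 1 library, and those of SKI and NEDD4L in 2.

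TGF-β target genes moved in both directions, with 4 higher and 3 lower of the 18 tested, against 7.05% and 8.07% of all tested genes. The median log2 fold change of the 18 was 0.055. JUNB, an AP-1 transcription factor, had 3.08, 2.77 and 2.56 FPKM in shNC and 6.82, 6.17 and 6.08 FPKM in shLINC01977 libraries. Its log2 fold change of 1.11 (adjusted p = 0.00231 from edgeR) was the only one among the 79 tested genes of the role lists past 2-fold with an unadjusted p of at most 0.05. TGFBI, a matrix protein named for its induction by TGF-β, fell without overlap from 39.3 to 46.2 FPKM in shNC to 24.5 to 27.5 FPKM in shLINC01977 libraries, a log2 fold change of -0.81 (adjusted p = 0.00167 from edgeR). TSC22D1, a leucine zipper gene induced by TGF-β, rose by 0.59 (adjusted p = 0.00173), and FN1, fibronectin, by 0.26 (adjusted p = 0.0101), both from edgeR.

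Of the 9 tested BMP target genes, which include ID1, ID2, ID3 and SMAD7, BAMBI alone was called in edgeR, against 15.1% of all tested genes. The median log2 fold change of the 9 was 0.038. Of the 4 under the filter, chosen after their values were seen, ID4 and HEY1 overlapped between groups. ATOH8 lay at 0.129 to 0.272 FPKM in shNC and 0.375 to 0.559 FPKM in shLINC01977 libraries, and DLX3 at 0.135 to 0.217 and 0.439 to 0.476 FPKM. In a fit of all listed genes, ATOH8 and DLX3 had adjusted p of 0.064 and 0.0535 from edgeR. The E proteins TCF3 and TCF12 were tested, and TCF3 rose by 0.32 on the log2 scale (adjusted p = 0.0322 from edgeR). TCF3 lay at 4.52, 5.06 and 5.25 FPKM in shNC and at 6.78, 6.45 and 6.15 FPKM in shLINC01977 libraries. The summed FPKM of ID1, ID2 and ID3 was 37.3, 33.4 and 34.6 times that of TCF3, TCF4 and TCF12 in shNC libraries. In shLINC01977 libraries it was 30.9, 29.8 and 32.8 times, so that every shLINC01977 value lay below every shNC value. In FPKM, which are scaled to library totals, both sums were nevertheless higher in shLINC01977 libraries without overlap. For the ID genes the gap was narrow, with 307 FPKM in the highest shNC and 313 FPKM in the lowest shLINC01977 library. With TMM scaling, ID1, ID2 and ID3 had 302, 151 and 127 CPM in that shNC library. They had 307, 140 and 125 CPM in that shLINC01977 library, so that the groups overlapped in the summed CPM of the ID genes. The ID genes summed to 297 ± 15.5 FPKM in shNC and 337 ± 21.3 FPKM in shLINC01977 libraries (SD, n = 3 each). The E proteins summed to 8.48 ± 0.872 and 10.8 ± 0.395 FPKM (SD, n = 3 each).

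**Figure D4:**
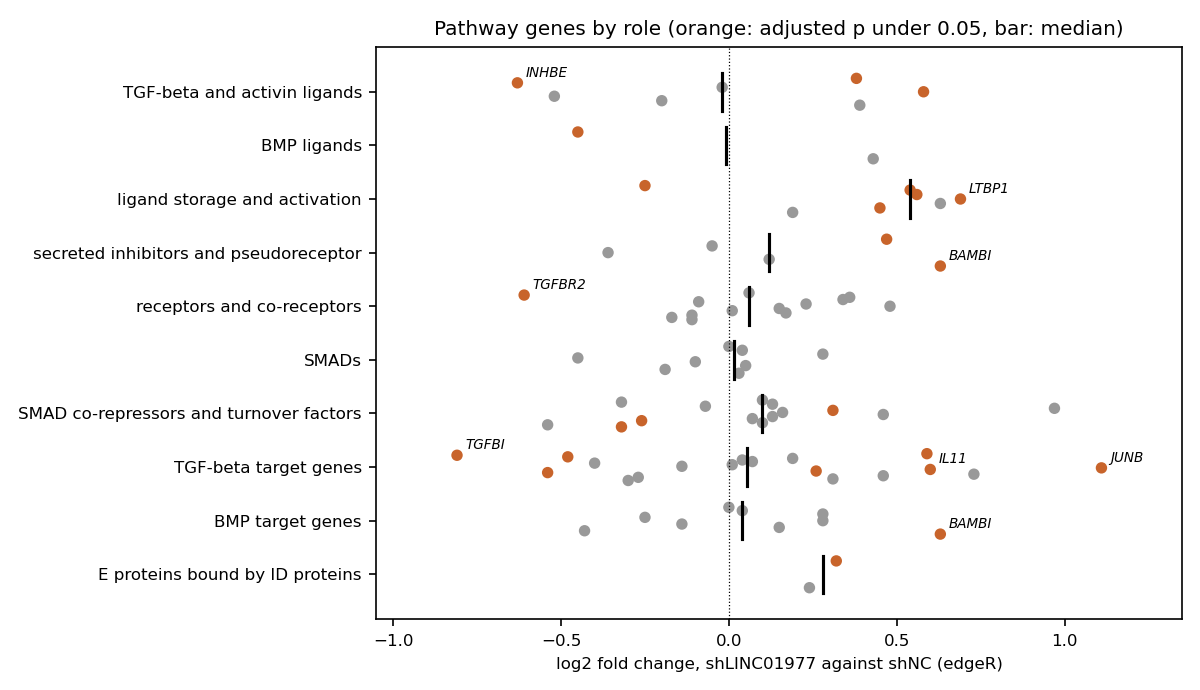
Log2 fold change between shLINC01977 and shNC libraries (edgeR) of the tested pathway genes in each role list, in orange where the adjusted p is under 0.05, with the median of each list as a black bar. The list of ligand storage and activation has its median at 0.543, and the medians of the receptors, SMADs and target genes lie between 0.014 and 0.062. The lists were written with earlier results of these data known.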

How the data were processed

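RNA-seq of 6 HepG2 libraries was used, 3 shNC and 3 shLINC01977, grouped by their titles. The deposited table pairs raw read counts per gene, summing to 49929024 to 60441515 per library, with FPKM from the authors, which are scaled to gene length and library total. The submitters' processing notes list bcl2fastq 2.0, HISAT2, StringTie, DESeq2, limma and hg38, without their roles, and strand use is not given in the sources used here. Of the 10 members, 9 have the same start and end in GENCODE 29 (GRCh38).

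Differences were tested on the counts in R 4.3.3 with edgeR 4.0.16 (TMM, quasi-likelihood), and p was adjusted by Benjamini-Hochberg over the 13452 genes whose FPKM averaged 0.5 or more. CPM are counts over the TMM-scaled total of these genes, and for TGFB2, which was not among them, over that of all listed genes. FPKM served for the filter, for levels of genes within libraries, and to show levels of genes other than the members, with the tests on counts. Alternatives were DESeq2 1.42.0, library totals, no filter, a filter at 1, limma 3.58.1 on log2(FPKM + 0.1) or log2(FPKM + 1), a replicate block, and each library left out. The script was tested on simulated data.

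The members and lists were chosen with earlier results of these data known. Genes named were the members, the called genes of each role list (at most 4 by p) and those whose pattern was closest to TGFBR2. Any other gene named was chosen after its values were seen. Intervals cover the spread between libraries.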

Additional observations from a re-analysis of the deposited data

How the results depend on the processing

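The direction of TGFBR2 and TGFB1 was kept in all 13 alternatives. TGFBR2 passed an adjusted p of 0.05 in each, with a log2 fold change of -0.65 to -0.54. TGFB1 lay between 0.34 and 0.44 and missed the threshold only with the replicate block (adjusted p = 0.0508 from edgeR), where 1 of the 9 members and 15 of the 79 role-list genes were called, against 2 and 23 without it. The libraries share only a number, since the deviations of same-numbered libraries from their group means correlated at -0.029, 0.017 and 0.055, and not every library correlated best with its own number. DESeq2 called 4 members, with ID3 and TGFBR1 beside TGFB1 and TGFBR2. With each library left out in turn, 2 to 3 members, 16 to 20 role-list genes and 1176 to 1398 of all tested genes were called, against 2033 with all libraries, where fewer samples were tested. SKIL changed sign without the second shNC or the third shLINC01977 library (-0.16 to 0.33 over the libraries left out), and SMAD7 without the third shNC or the third shLINC01977 library (-0.033 to 0.10), and the cause was not tested. Of all tested genes, 948 were higher and 1085 lower with TMM, 1455 and 768 with library totals, and 1269 and 729 with limma on log2(FPKM + 0.1). Over all tested genes, the log2 fold change had a median of -0.001 with TMM and 0.065 with library totals. TGFB2, at 6 to 12 counts, is limited by depth and had a value only without the filter.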

Other observations

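The 5 tested genes whose log2 CPM followed TGFBR2 most closely over the 6 libraries were PPIF, COA6, SLC9B2, ARID3A and C1orf115, with Pearson correlations of 0.9980 to 0.9988. These are the highest correlations among the tested genes over the same 6 libraries, which differ by group, and they are given as a description. PPIF, mitochondrial cyclophilin D, went from 104 to 78.5 FPKM and had a log2 fold change of -0.46 (adjusted p = 0.00160 from edgeR), and COA6, a cytochrome c oxidase assembly factor, went from 25.6 to 18.7 FPKM.

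Several pathway genes, chosen after their values were seen, had a library that stood apart from the others of its group. SMAD5, a transducer of BMP signals, had 1.97 FPKM in the first shLINC01977 library and 6.6 to 7.05 FPKM in the other 5 libraries. TGIF2, a SMAD co-repressor, had 1.54 FPKM in the second shNC library, 7.62 and 8.41 FPKM in the other shNC libraries and 11.3 to 13.5 FPKM in shLINC01977 libraries. ITGAV, the integrin alpha V subunit that takes part in TGF-β activation, had 14.2, 14.2 and 16 FPKM in shNC and 28.7, 14.3 and 29.1 FPKM in shLINC01977 libraries. In edgeR, SMAD5, TGIF2 and ITGAV did not pass the adjusted threshold, with adjusted p of 0.518, 0.281 and 0.143.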
